A study of Mus musculus with 27 samples.

Results

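Polyadenylated RNA bound to chromatin was compared with polyadenylated RNA of the cytoplasm in mouse embryonic stem cells (mESC). The cells were of the E14 line, an established line grown on gelatin in medium with leukaemia inhibitory factor (LIF), the cytokine that keeps such cells undifferentiated. No allele or agent beyond these culture conditions is named for any group. The comparison used 6 of the 27 libraries of the series, chosen by the fraction named in the column headers of the count table, with 3 libraries of chromatin and 3 of cytoplasm. The other 21 libraries were the soluble nucleoplasm of the same cells and all 3 fractions of a neural progenitor line (mNPC), derived in the laboratory and fed EGF and FGF daily in B27 medium, and of primary cortical neurons kept on poly-L-lysine for 5 days (mCtx). All RNA was longer than 200 nt before selection with oligo-dT, and each fraction was prepared in biological triplicate. The mESC groups are replicate preparations of 1 cell line, so the p-values do not cover differences between lines. The spread behind them was estimated jointly over replicates of all 9 groups of cell type and fraction, neural cells included.

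A pre-mRNA is copied, spliced and given a poly(A) tail while it is still attached to chromatin, and most messenger RNA is then released and exported through the nuclear pores to the ribosomes. Some long noncoding RNAs (lncRNAs) stay in the nucleus for life, and primary microRNA transcripts are cut there before they can be exported. Some protein-coding transcripts also stay nuclear for long, often with introns left in them, a state known as nuclear retention. Fractionation of cells into cytoplasm, soluble nucleoplasm and chromatin pellet is used to ask where each polyadenylated RNA resides.

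Levels are given in CPM, the count of a gene relative to the library's total after scaling by the trimmed mean of M values (TMM), and a log2 fold change is that of chromatin over cytoplasm, with its standard error (SE). A gene counted as called, higher or lower, at an adjusted p under 0.05 in edgeR's quasi-likelihood test together with a change of 1 or more on the log2 scale. Each level is relative to the RNA of its own fraction. More molecules of a transcript and less RNA of other genes in a fraction cannot be told apart, and the amount of RNA per cell in each fraction was not used here. The mESC libraries held 13496984 to 20808290 counts. The library numbered 1 stood apart from 2 and 3 in every fraction: the chi-square per degree of freedom between libraries was 36.84 to 74.58 for pairs with it and 12.46 to 19.66 for pairs without. In that library 138 genes were at least 1 higher and 92 at least 1 lower on the log2(CPM + 1) scale in all 3 fractions, among them the homeobox gene Gbx2, which differed by -1.91 in chromatin, -1.95 in nucleoplasm and -1.54 in cytoplasm. Sums over marker lists, here and below, are relative to the library's total without TMM scaling, so they differ in scale from the levels of single genes. On that scale the 39 pluripotency regulators summed to 7389 to 8237 CPM in chromatin and 12227 to 12950 CPM in cytoplasm. The 19 neuronal and glial markers summed to 169 to 242 CPM and 220 to 263 CPM, with Neurod6 and Aqp4 at 0 in both fractions.

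The microRNA loci of embryonic stem cells had the highest median of the 33 gene lists in counts, but not in TPM, an estimate of transcripts corrected for their length. MicroRNAs pair with target messages through their seed, bases 2 to 8. Of the mature microRNAs of these loci, 7 are shown to set side by side 2 seeds that differ by a shift of 1 base, given in capitals below (RefSeq, GRCm38.p6, 5′ to 3′); the loci also encode microRNAs with other seeds. The first 4 sequences come from the Mir17hg transcript on chromosome 14 and the Mir106b, Mir93 and Mir25 cluster on chromosome 5, and the last 3 from the Mir290 to Mir295 cluster on chromosome 7. Examples of their positions are chr14:115043684-115043706 (+) for miR-17-5p, chr5:138165787-138165807 (-) for miR-106b-5p and chr7:3220691-3220712 (+) for miR-294-3p.
mmu-miR-17-5p: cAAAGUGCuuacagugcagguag
mmu-miR-20a-5p: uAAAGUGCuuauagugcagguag
mmu-miR-106b-5p: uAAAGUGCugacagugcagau
mmu-miR-93-5p: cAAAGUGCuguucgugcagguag
mmu-miR-291a-3p: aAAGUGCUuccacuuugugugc
mmu-miR-294-3p: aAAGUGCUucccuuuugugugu
mmu-miR-295-3p: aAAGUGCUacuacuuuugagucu
The libraries held RNA over 200 nt, so the counts at these loci are of longer polyadenylated transcripts that cover the hairpins and not of the mature molecules printed above.

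Mir17hg (ENSMUSG00000099262, mm10 chromosome 14, 115042879 to 115046727, + strand), the host of the miR-17 group, had 178, 246 and 178 CPM in the chromatin libraries, 26.3, 29.8 and 20.1 CPM in the nucleoplasm and 1.18, 2.43 and 1.92 CPM in the cytoplasm. The 3 fractions did not overlap, and the level fell at each step away from chromatin. Its log2 fold change was 6.73 ± 0.22 (SE, n = 3 against 3, edgeR quasi-likelihood test, adjusted p = 4.3e-18). Mir294, 1 of the 7 tested loci of the chromosome 7 cluster (3218626 to 3220841, + strand), stood at 65.3, 51.9 and 50.1 CPM in chromatin and at 0.442, 0.169 and 0.116 CPM in cytoplasm, where its 3 libraries held 11 counts in all. Its log2 fold change was 7.88 ± 0.56 (adjusted p = 6.6e-09 by the same test), and 8.56 without the cytoplasm library numbered 1. Over the 7 loci the chromatin libraries summed to 465 to 5796 counts a locus and the cytoplasm libraries to 1 to 21. Of 21 names in the list of stem cell microRNA loci and hosts, 11 were tested and 11 were called higher in chromatin, beside 34.4% of all 18226 genes tested. None was called lower, beside 21.6% of all genes. The list's median log2 fold change was 7.84 against 0.37 over all genes. Loci with few counts outside chromatin passed the filter on low counts through that fraction, so this count was largely fixed by the filter and is given as a description. On the log2(TPM + 1) scale 3 of the 11 were called higher and the median was 0. The loci of the Mir106b cluster lie inside the gene Mcm7 on the same strand, so counts there cannot be separated from unspliced Mcm7 RNA.

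Nuclear lncRNAs followed the same direction. Malat1, an abundant lncRNA of nuclear speckles, had 1828, 1232 and 1476 CPM in chromatin and 18.9, 19.6 and 21.4 CPM in cytoplasm. Every chromatin library was above every cytoplasm library, with the nucleoplasm between them at 160 to 342 CPM. The log2 fold change was 6.24 ± 0.26 (adjusted p = 1.8e-16, edgeR). Firre, an X-linked lncRNA that gathers distant chromosomal sites, stood at 592, 657 and 535 CPM in chromatin against 13.7, 26.1 and 22.8 CPM in cytoplasm (4.83 ± 0.24). Neat1, the scaffold of paraspeckles, had 1204, 654 and 734 CPM against 44.6, 22.3 and 28.2 CPM (4.77 ± 0.39, adjusted p = 3.2e-11). For both, no chromatin library came near the cytoplasmic range. Tug1 had closely spaced chromatin values of 324, 327 and 319 CPM and 38.8, 26.9 and 25.4 CPM in the cytoplasm libraries (3.41 ± 0.17, adjusted p = 2.7e-15). Of the 22 listed nuclear lncRNAs, 10 were tested, and 10 were higher and 0 lower in chromatin, with a median of 4.85. The shares over all genes were 34.4% and 21.6%. Members with few counts outside chromatin could pass the filter through that fraction, so the count is a description. Xist, for example, had 1.33 CPM in chromatin and 0 in cytoplasm. Tsix, the antisense partner of Xist, had a log2 fold change of 5.51 ± 0.36, but 42.7% of its span is overlapped by Xist on the other strand and the strand setting of the counting is not given in the sources used here.

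Genes that host small nucleolar RNAs in their introns were also higher in chromatin, in 8 of 10 tested members (0 lower, median 2.64). Of all genes tested 34.4% were higher and 21.6% lower, the base for the class counts below too. Snhg11, filed as protein-coding in GENCODE M21, had 257, 268 and 299 CPM in chromatin and 4.42, 5.81 and 6.52 CPM in cytoplasm (log2 fold change 5.61 ± 0.20, adjusted p = 2.9e-17). Gas5, whose introns carry several small nucleolar RNAs, had 233, 454 and 424 CPM in chromatin and 21.3, 15.4 and 14.6 CPM in cytoplasm (4.44 ± 0.20, adjusted p = 9.3e-16). Its library numbered 1 was the lowest of the chromatin libraries and the highest of the cytoplasm libraries. Counted by class, 246 of 254 snoRNA loci were higher and none lower (median 4.79). As with the microRNA loci, those with few counts outside chromatin could pass the filter through that fraction, so this count is a description. Most such loci lie inside a host gene, and fragments over 200 nt that span them belong to longer transcripts. Of 1119 lncRNA genes of all classes, 646 were higher and 44 lower, with a median of 2.13. Among those with the largest change was AI480526, at 87.2, 108 and 104 CPM in chromatin and 1.10, 0.903 and 0.932 CPM in cytoplasm (6.67 ± 0.26, adjusted p = 6.9e-17).

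**Figure D1:**
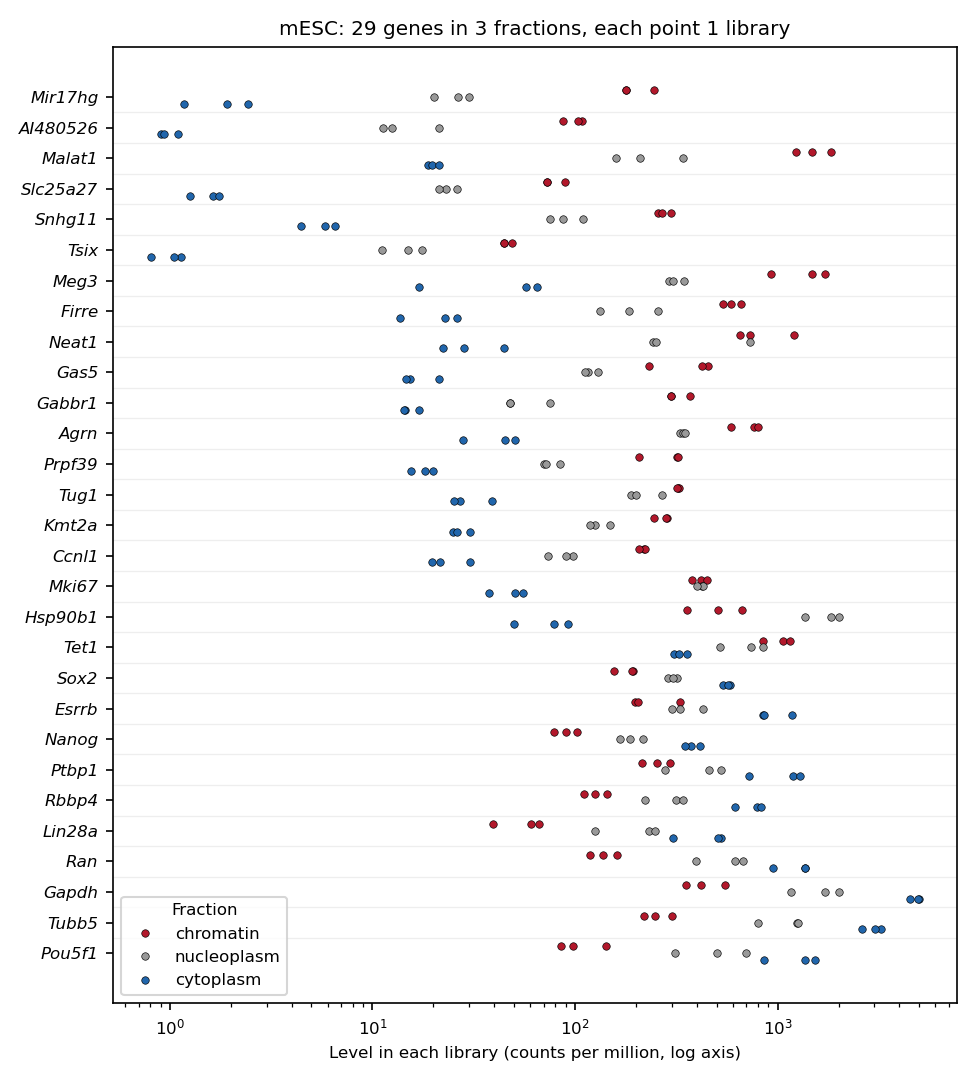
Level of 29 genes in each of the 9 mESC libraries, in CPM on a log axis, with genes ordered by log2 fold change of chromatin over cytoplasm. From Mir17hg (178 to 246 CPM in chromatin, 1.18 to 2.43 in cytoplasm) at the top to Pou5f1 at the bottom the chromatin and cytoplasm points change sides, and the nucleoplasm points of Hsp90b1 lie above both.

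Among protein-coding genes, those with the highest ratios under the naming rule included genes best known from other tissues. Slc25a27, which encodes a mitochondrial carrier of the uncoupling protein family, stood at 72.7, 73.1 and 89.6 CPM in chromatin against 1.25, 1.64 and 1.75 CPM in cytoplasm. Its replicates were tight on both sides, and the log2 fold change was 5.64 ± 0.19 (adjusted p = 6.2e-18, edgeR). Catsperg1, a subunit of the calcium channel of sperm, had 86.6, 63.1 and 58.5 CPM in chromatin and 1.91, 1.30 and 0.757 CPM in cytoplasm (5.74 ± 0.39). Izumo4, a relative of the sperm protein that fuses with the egg, had 9.98, 12.3 and 16.8 CPM against 0.295, 0.169 and 0.175 CPM (5.93 ± 0.32). Both genes had no overlap between fractions and low absolute levels in cytoplasm. The sorting nexin Snx32 (5.75 ± 0.31), the brain proline transporter Slc6a7 (5.83 ± 0.59) and the testis serine protease Prss42 (5.63 ± 0.54) were called as well. Clcn1, the chloride channel of skeletal muscle, had a log2 fold change of 6.45 ± 0.63 (adjusted p = 7.4e-10). Its libraries were uneven, with 35.7, 22.9 and 8.77 CPM in chromatin and 0.442, 0.339 and 0 CPM in cytoplasm, and without the cytoplasm library numbered 3, which had no count, the value was 5.82.

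Receptors and channels of the synapse formed a list of 51 tested genes, with a median span of 188 kb. Of these 39 were higher in chromatin, 1 was lower and 11 were not called (median 2.54), beside 34.4% higher and 21.6% lower of all genes. In a fit of only the libraries compared, 30 were tested, with 26 higher and 1 lower. The other members passed the filter on low counts only with the other libraries included. Gabbr1, a subunit of the GABA-B receptor for the inhibitory transmitter GABA, had 297, 298 and 371 CPM in chromatin, 75.4, 47.5 and 47.6 CPM in nucleoplasm and 14.4, 14.3 and 16.9 CPM in cytoplasm. The 3 fractions were separate, and the log2 fold change was 4.40 ± 0.18 against cytoplasm and 2.5 ± 0.17 against nucleoplasm. The neuronal calcium channel gene Cacna1b rose by 3.37 ± 0.22, from 4.10 ± 0.825 to 42.4 ± 8.33 CPM (mean ± SD, n = 3). Many of the other members were near the limit of detection: in cytoplasm Cacna1e, Grm5 and Nrxn3 had no count at all, so no fold change is given for them. The member that was lower was the kainate receptor gene Grik3, with 241, 102 and 101 CPM in chromatin and 838, 633 and 411 CPM in cytoplasm (-2.09 ± 0.29). Its direction depended on the unit: in TPM the log2(TPM + 1) ratio was 1.24, higher in chromatin. In TPM, 18 of these 51 passed on the chromatin side and 0 on the cytoplasm side.

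Zinc finger genes with symbols from Zfp600 to Zfp999 were spread towards chromatin, with 86 of 158 higher, 14 lower and a median of 1.13. Over all genes 34.4% were higher and 21.6% lower, with a median of 0.37. Zfp950 stood at 49.2, 40.3 and 51.2 CPM in chromatin and 1.47, 2.54 and 1.81 CPM in cytoplasm (4.57 ± 0.21), and Grk5 overlaps 44.5% of its span on the other strand. Zfp808 had 116, 147 and 143 CPM against 4.27, 7.0 and 10.4 CPM (4.21 ± 0.22). In both genes the fractions were an order of magnitude apart in every library. Many of these genes have close copies, between which the counting could divide reads.

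Genes for the kinases and scaffolds of nuclear speckles, the bodies where splicing factors are stored, were higher in chromatin in 17 of 28 cases. None was lower, and the median was 1.58, beside 34.4% higher, 21.6% lower and a median of 0.37 over all genes. CLK kinases phosphorylate SR proteins, and L cyclins pair with splicing-associated kinases. Clk4 had 176, 177 and 231 CPM in chromatin and 22.4, 20.9 and 28.9 CPM in cytoplasm (3.02 ± 0.17, adjusted p = 2.6e-14). Clk1 had 215, 214 and 307 CPM and 39.0, 40.5 and 69.9 CPM (2.30 ± 0.21). Ccnl1 and Ccnl2 rose by 3.17 ± 0.19 and 3.13 ± 0.17. In each of these genes every chromatin library was above every cytoplasm library. Srrm2, the large speckle scaffold, had 1041, 1891 and 2468 CPM against 408, 576 and 661 CPM (1.71 ± 0.24), with the library numbered 1 lowest on both sides.

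Other splicing lists differed in direction. Of 58 core spliceosome components, 45 were lower in chromatin and 3 higher (median -1.66). Snrpb, which encodes a protein of the Sm ring, had 58.4, 63.3 and 66.7 CPM in chromatin and 376, 461 and 477 CPM in cytoplasm (-2.80 ± 0.15). The members that rose included Prpf39, a U1-associated protein, with 208, 318 and 324 CPM against 15.5, 18.2 and 20 CPM (3.98 ± 0.23), and Snrnp48, a protein of the minor spliceosome (3.40 ± 0.17). Both sat far from the other members of the list. SR proteins had 5 higher and 2 lower of 13 (median 0.56), beside 34.4% and 21.6% of all genes. They had 7 higher and 1 lower both with library totals and in TPM. They ranged from Tra2a, a splicing regulator that autoregulates its own mRNA (2.11 ± 0.14), to Srsf9 (-2.78 ± 0.16). Of 27 hnRNP proteins, 13 were lower and 3 higher (median -0.99), and in TPM 8 were lower and 5 higher. Of the polypyrimidine tract-binding proteins in that list, Ptbp1 and Ptbp2 went opposite ways and Ptbp3 was not called (-0.29 ± 0.17). Ptbp1 had 214, 255 and 293 CPM in chromatin and 726, 1194 and 1298 CPM in cytoplasm (-2.08 ± 0.19). In TPM its change was -0.80 (adjusted p = 8.68e-05 by limma), too small for a call. Ptbp2, the neuronal paralogue of Ptbp1, had 132, 139 and 97.2 CPM and 21, 29.8 and 32.5 CPM (2.14 ± 0.18). Hnrnph1 also rose by 1.77 ± 0.16, whereas Hnrnpab changed by -3.41 ± 0.21. Ptbp1 and Hnrnpab are overlapped on the other strand by Plppr3 and Phykpl over 41.5% and 65.1% of their spans.

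Chromatin regulators were divided almost evenly, with 17 of 95 histone modifiers and remodelers higher, 18 lower and 60 not called (median 0.12). Of all genes 34.4% were higher and 21.6% lower. Kmt2a, a methyltransferase of lysine 4 of histone H3, had 285, 245 and 282 CPM in chromatin and 25, 26.0 and 30.3 CPM in cytoplasm (3.32 ± 0.18). Atrx, a remodeler of heterochromatin, had 588, 841 and 930 CPM and 63.0, 109 and 122 CPM (3.00 ± 0.27). At the other end, the histone-binding subunit Rbbp4 had 111, 126 and 144 CPM and 617, 792 and 832 CPM (-2.56 ± 0.15). The even division held for counts scaled by TMM: on the TPM scale 46 of 95 were higher and 6 lower, and with scaling by library totals 34 were higher and 9 lower. Among genes of DNA methylation, 4 of 17 were higher and 7 lower (median 0.20), and this balance turned to 6 higher and 3 lower with library totals and 6 and 2 in TPM. Tet1, which oxidises 5-methylcytosine and is highly expressed in stem cells, had 851, 1068 and 1150 CPM in chromatin and 307, 328 and 356 CPM in cytoplasm (1.63 ± 0.20). Tet2 (1.77 ± 0.19) and Zfp57, a guardian of imprints (2.14 ± 0.25), moved with it. The cofactor Dnmt3l was lower, with 79.4, 62.5 and 88.3 CPM against 354, 319 and 337 CPM (-2.13 ± 0.15).

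Genes of the extracellular matrix and of the endoplasmic reticulum (ER) showed another pattern, with a peak in the nucleoplasm for most. Of 39 collagen, laminin and other matrix genes tested, 35 were higher in chromatin than in cytoplasm and none was lower (median 2.39). Over all genes the shares were 34.4% and 21.6%. Yet 24 of the 39 had their highest mean level in the nucleoplasm, beside 3816 of all 18226 genes tested. Lamc1, a laminin chain, had 274, 187 and 247 CPM in chromatin, 1145, 781 and 928 CPM in nucleoplasm and 60.8, 58.6 and 67.3 CPM in cytoplasm. It was higher in chromatin than in cytoplasm by 1.92 ± 0.17 and lower in chromatin than in nucleoplasm, by -2.01 ± 0.17 on the log2 scale. Agrn, the proteoglycan agrin, had its highest level in chromatin, with 586, 766 and 802 CPM there, 329, 340 and 350 CPM in nucleoplasm and 28.0, 44.9 and 50.5 CPM in cytoplasm (4.12 ± 0.22). The laminin chain Lama5 had the same order of fractions, at 668 ± 166, 371 and 54.1 ± 18.0 CPM (3.62 ± 0.23).

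Chaperones and translocation factors of the ER were called higher in 17 and lower in 7 of 43 cases (median 0.61), shares near the 34.4% and 21.6% of all genes, with 24 and 6 by library totals and 29 and 6 in TPM. In contrast to that small shift, 35 of the 43 had their highest mean in the nucleoplasm, beside 3816 of all 18226 genes tested. Hsp90b1, an ER chaperone, had 359, 508 and 665 CPM in chromatin, 1362, 1827 and 2009 CPM in nucleoplasm and 49.9, 78.5 and 92.8 CPM in cytoplasm (2.79 ± 0.21). Hspa5, the ER chaperone BiP, followed with means of 169 ± 43.9, 1143 and 56.5 ± 15.6 CPM (1.58 ± 0.19). Each library of nucleoplasm exceeded each library of the other fractions for both genes. Sec61a2, a channel subunit of the translocon, rose by 3.91 ± 0.12 and the small subunit Sec61b changed by -2.52 ± 0.23. Of the 43 genes, 36 were lower and 0 higher in chromatin than in nucleoplasm, beside 17.4% and 16.0% of all genes and 33.4% called in either direction. From nucleoplasm to cytoplasm, 33 were higher in nucleoplasm and 1 lower, beside 27.5% and 8.95% of all genes and 36.5% in either direction. These contrasts share the mESC chromatin and cytoplasm libraries with the main one. Messenger RNAs encoded in mitochondria behaved likewise: 7 of 11 tested were higher in chromatin than in cytoplasm, and these 7 peaked in the nucleoplasm. The other 4, mt-Co2, mt-Co3, mt-Atp6 and mt-Atp8, were practically uncounted, at 0 to 0.477 CPM in every fraction, whereas in TPM all 11 were called higher in chromatin. mt-Nd1, a subunit of respiratory complex I, had 516, 601 and 555 CPM in chromatin, 3999, 5504 and 4449 CPM in nucleoplasm and 48.4, 57.0 and 41.9 CPM in cytoplasm (3.50 ± 0.22). Fibroblast and mural markers, which include secreted proteins, summed to 52.2 to 103 CPM in chromatin, 94.5 to 254 CPM in nucleoplasm and 23.1 to 42.0 CPM in cytoplasm, without TMM scaling. Of 15 tested, 5 were higher and 2 lower, beside 34.4% and 21.6% of all genes, and Dcn and Lum were at 0 in chromatin and cytoplasm. In a fit of only the libraries compared, 9 were tested, with 3 higher and 2 lower. How much membrane or mitochondrial material each fraction carried was not tested.

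**Figure D2:**
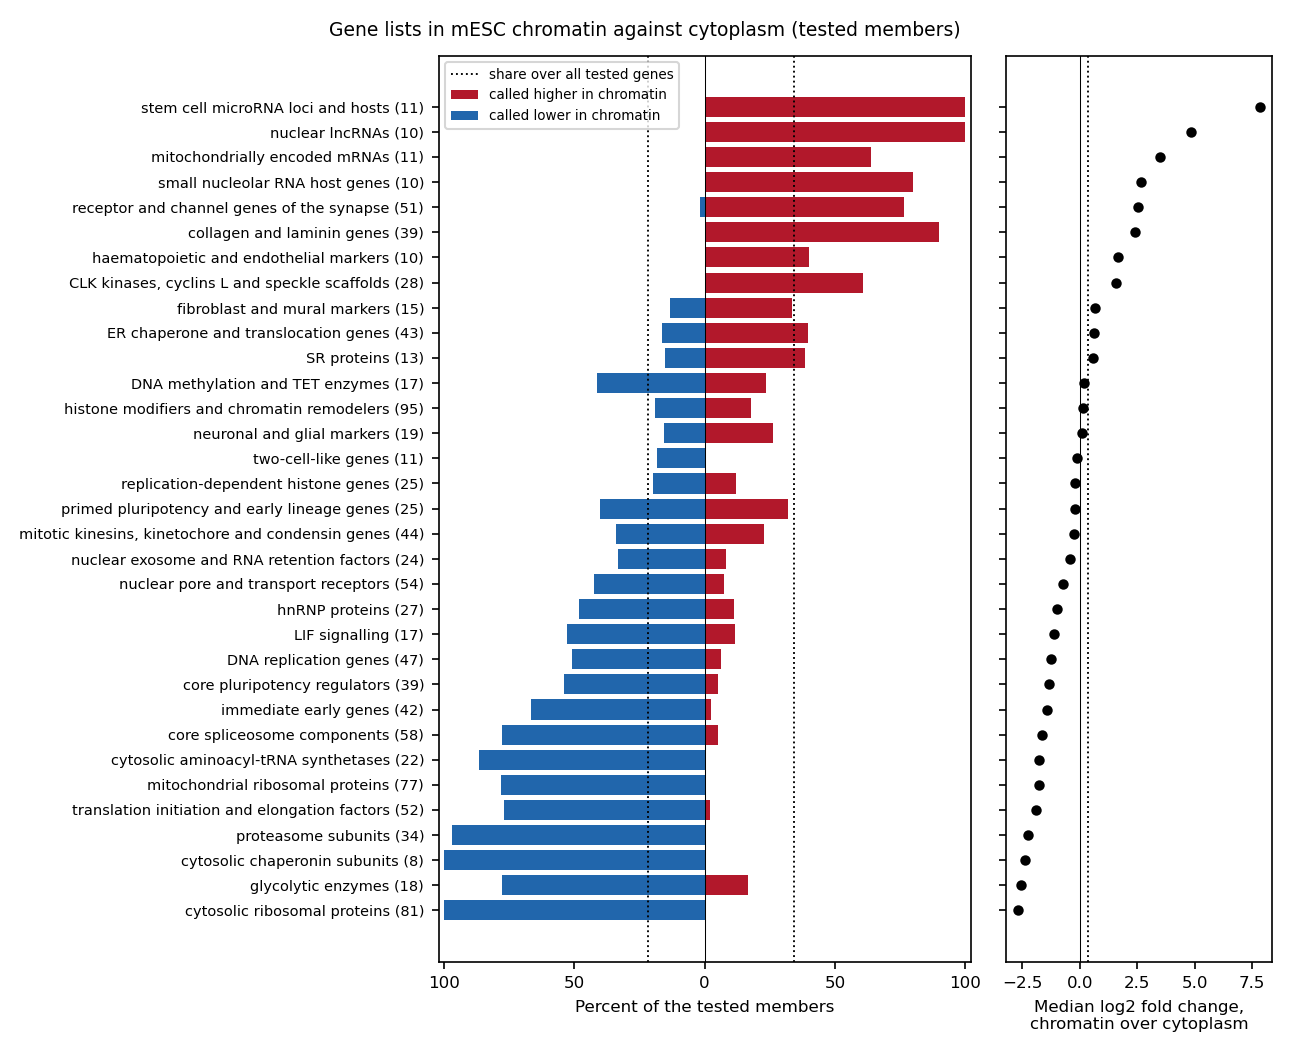
Share of the tested members of each of 33 gene lists called higher (to the right) or lower (to the left) in mESC chromatin than cytoplasm, and the median log2 fold change of each list. Dotted lines give the shares over all 18226 tested genes (34.4% higher, 21.6% lower) and their median of 0.37, and the lists run from microRNA loci (median 7.84) to cytosolic ribosomal proteins (median -2.69).

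The transcripts of pluripotency regulators lay mostly on the cytoplasmic side. Of 39 tested, 21 were lower in chromatin, 2 were higher and 16 were not called (median -1.33). Of all genes 21.6% were lower and 34.4% higher. Pou5f1, which encodes the transcription factor Oct4, had 85.6, 97.7 and 142 CPM in chromatin, 310, 500 and 697 CPM in nucleoplasm and 861, 1370 and 1525 CPM in cytoplasm. The fractions were separate in every library, and the library numbered 1 was the lowest in each of the 3 fractions. Its log2 fold change of -3.53 ± 0.31 (adjusted p = 7.4e-08, edgeR) was among the 10 lowest of protein-coding genes under the naming rule. Utf1 (-3.11 ± 0.29) and the RNA-binding protein Lin28a (-3.01 ± 0.24) were close to it. Dppa5a, another RNA-binding protein of stem cells, had 224, 196 and 236 CPM in chromatin, 1397, 1375 and 1531 CPM in nucleoplasm and 1364, 1378 and 1438 CPM in cytoplasm (-2.67 ± 0.15). Its nucleoplasm and cytoplasm overlapped, and the step was between chromatin and the other fractions.

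The transcription factors of the core network did not move by one amount. Nanog had 89.8, 79.0 and 102 CPM in chromatin and 372, 350 and 412 CPM in cytoplasm (-2.06 ± 0.20). Esrrb had 329, 197 and 204 CPM against 1184, 846 and 855 CPM (-1.98 ± 0.23), and Sox2 had 155, 193 and 191 CPM against 584, 536 and 567 CPM (-1.65 ± 0.12). In TPM the change of Sox2 was -0.66 (adjusted p = 1.84e-05 by limma), too small for a call. Sox2 lies wholly inside a longer gene on the same strand, ENSMUSG00000090828. Klf4 had 55.8, 26.4 and 45 CPM against 141, 70.6 and 109 CPM (-1.33 ± 0.24, adjusted p = 2.1e-05, edgeR). With library totals its change was too small for a call (-0.83, adjusted p = 0.00645 by edgeR), and in TPM it was not called (-0.30, adjusted p = 0.349 by limma). Zfp42 (Rex1) was not called: its chromatin values were 753, 633 and 621 CPM, its cytoplasm values 808, 780 and 851 CPM and its log2 fold change -0.28 ± 0.13 (adjusted p = 0.074). Tfcp2l1 fell short of a call in size only, at 251, 161 and 211 CPM against 348, 248 and 313 CPM (-0.55 ± 0.17, adjusted p = 0.0048, edgeR). Its fractions overlapped. The 2 members that were higher in chromatin were Rif1, which acts in replication timing and telomere protection, with 625, 456 and 433 CPM against 230, 214 and 214 CPM (1.20 ± 0.20), and the zinc finger gene Rex2, a locus distinct from Zfp42, with 50.3, 50.9 and 44.2 CPM against 2.36, 5.02 and 4.60 CPM (3.58 ± 0.23). With library totals the list had 6 higher and 19 lower, and on the TPM scale 9 higher and 15 lower. In TPM the corepressor Trim28 changed sign, from -1.68 ± 0.18 in counts to a log2(TPM + 1) ratio of 0.46.

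**Figure D3:**
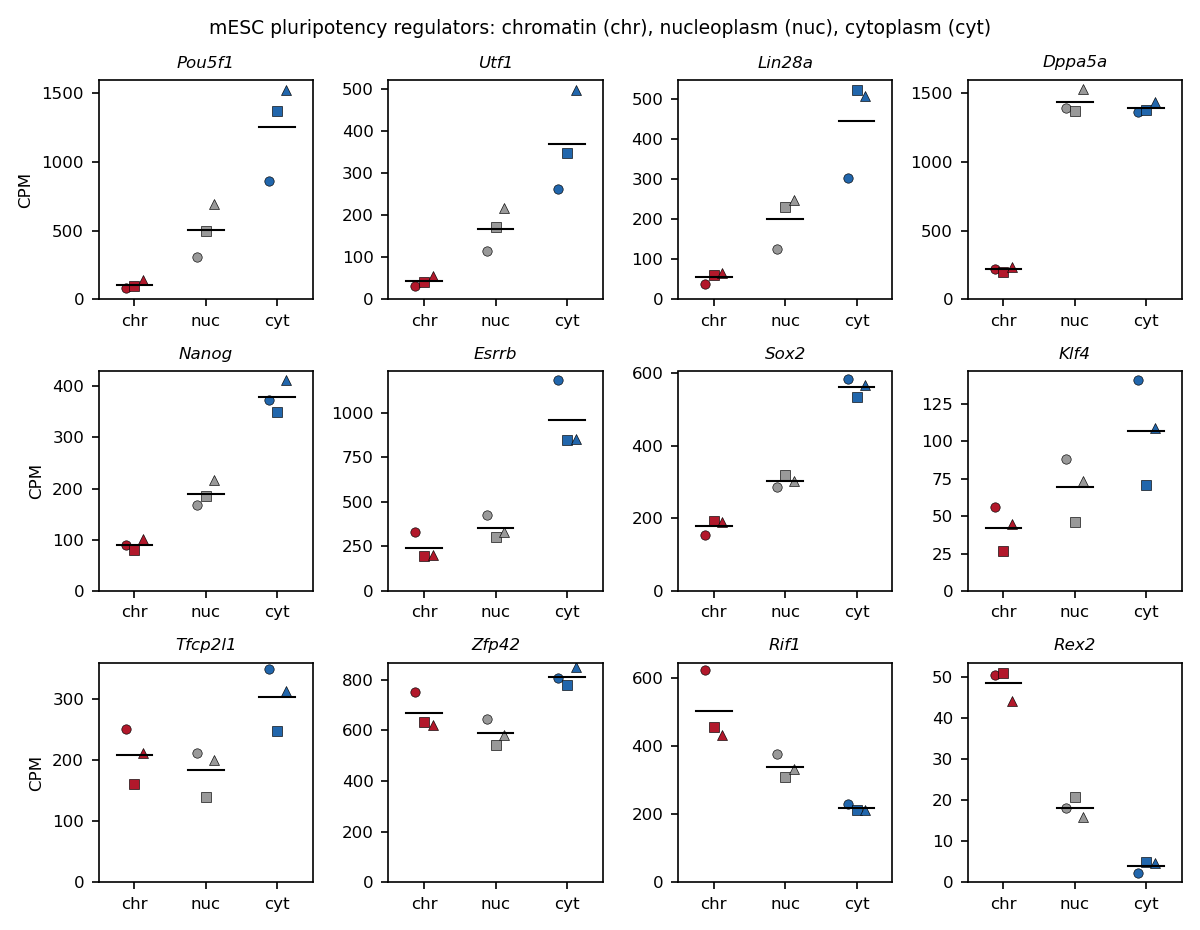
CPM of 12 pluripotency regulators in mESC chromatin (red), nucleoplasm (grey) and cytoplasm (blue). Circles, squares and triangles are the libraries numbered 1, 2 and 3, and lines are means of 3. Pou5f1 climbs from 108 to 502 to 1252 CPM, Zfp42 is nearly level and Rif1 and Rex2 descend.

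In the LIF pathway the receptor chains were high in the nuclear fractions: Lifr had 242, 186 and 213 CPM in chromatin, 329, 197 and 229 CPM in nucleoplasm and 30.7, 20.2 and 25 CPM in cytoplasm (3.08 ± 0.18), and its partner Il6st, the gp130 chain, rose by 1.86 ± 0.14. Chromatin and nucleoplasm of Lifr overlapped. The feedback inhibitor Socs3 was lower in chromatin, with 87.0, 75.4 and 134 CPM against 337, 223 and 392 CPM (-1.68 ± 0.20). In TPM its change of -0.52 (adjusted p = 0.0308 by limma) was too small for a call. Of 17 pathway genes, 9 were lower and 2 higher, which were these receptor chains. Over all genes 21.6% were lower and 34.4% higher. With scaling by library totals 4 were lower, and on the TPM scale 3.

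Transcripts of the basic machinery of the cell mostly had higher relative levels in the cytoplasm. Of 81 cytosolic ribosomal protein genes, 81 were lower in chromatin, as were 40 of 52 translation factors, 19 of 22 aminoacyl-tRNA synthetases, 8 of 8 subunits of the cytosolic chaperonin and 33 of 34 proteasome subunits. Their medians were -2.69, -1.89, -1.76, -2.38 and -2.28. Of all genes 21.6% were lower and 34.4% higher, with a median of 0.37. In TPM the synthetases had 11 lower and 2 higher. Eef1a1, the elongation factor that brings aminoacyl-tRNA to the ribosome, had 1465, 1348 and 1661 CPM in chromatin and 17092, 13737 and 13600 CPM in cytoplasm (-3.31 ± 0.17). The helicase Eif4a2 was the 1 translation factor that rose, with 1296, 1538 and 1574 CPM against 561, 501 and 431 CPM (1.56 ± 0.14). The chaperonin subunit Cct6a, whose locus is filed as a processed transcript in GENCODE M21, had 126, 155 and 147 CPM against 654, 788 and 859 CPM (-2.43 ± 0.16).

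Of 13 alpha and beta tubulin genes, 12 were lower in chromatin and 0 higher, beside 21.6% and 34.4% of all genes. Their median was -3.14. Tubb5 had 218, 249 and 302 CPM in chromatin, 804, 1252 and 1267 CPM in nucleoplasm and 2621, 3225 and 3015 CPM in cytoplasm (-3.53 ± 0.17, adjusted p = 3.0e-15). Tuba1b stood at 75.0, 120 and 150 CPM against 1008, 1569 and 1568 CPM (-3.58 ± 0.24). Tubulin genes are near-identical to each other and to pseudogenes, so the division of reads between them is uncertain. Of the other protein-coding genes with the lowest ratios, Marcksl1, a regulator of actin, had 26.5, 35.0 and 50.8 CPM against 301, 522 and 575 CPM (-3.64 ± 0.27). Prdx2, a peroxiredoxin (-3.58 ± 0.21), and Uqcrfs1, the Rieske protein of respiratory complex III (-3.55 ± 0.22), had narrower replicates. Gpx2 (-3.84 ± 0.31) lies wholly opposite Fntb and Gng3 (-3.74 ± 0.45) lies opposite Bscl2 over 76.8% of its span.

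Of 18 glycolytic enzymes, 14 were lower and 3 higher (median -2.57). Gapdh had 353, 418 and 551 CPM in chromatin and 4491, 4973 and 4917 CPM in cytoplasm (-3.44 ± 0.21), and Pkm, pyruvate kinase, had 748, 1285 and 1697 CPM against 3183, 5367 and 5471 CPM (-1.91 ± 0.25). The members that rose included Pfkp, a phosphofructokinase, with 1018, 973 and 1213 CPM against 271, 303 and 437 CPM (1.66 ± 0.17), and Eno2, the neuronal enolase, with 26.1, 25.6 and 25.3 CPM against 6.56, 5.25 and 3.90 CPM (2.30 ± 0.19). Genes of DNA replication were lower in 24 and higher in 3 of 47 cases (median -1.27; 14 and 8 in TPM), with the helicase subunit Mcm2 at -2.65 ± 0.18 and the polymerase subunit Pold2 at -2.88 ± 0.21. Mitotic genes were mixed, with 10 higher and 15 lower of 44, beside 34.4% and 21.6% of all genes. That balance turned to 15 and 12 with library totals and 15 and 8 in TPM. The kinase Plk1 had 34.2, 40.8 and 47.0 CPM against 200, 292 and 295 CPM (-2.69 ± 0.17), whereas Mki67, the proliferation marker that coats mitotic chromosomes, had 417, 380 and 447 CPM against 50.4, 55.3 and 37.6 CPM (3.12 ± 0.19). Of 42 immediate early genes, 28 were lower and 1, Nr4a2, was higher (3.08 ± 0.20), and those lower numbered 18 with library totals and 7 in TPM.

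Transport factors included Ran, the GTPase that drives nuclear transport, with 118, 137 and 162 CPM against 946, 1371 and 1373 CPM (-3.15 ± 0.18), and the import receptor Kpnb1 (-2.0 ± 0.19). Nup210, a membrane-spanning nucleoporin, was among the 4 of 54 that were higher, with 119, 133 and 125 CPM against 22.6, 27.9 and 27.5 CPM (2.27 ± 0.15). There were 23 lower in that list (median -0.72), beside 21.6% lower and 34.4% higher of all genes. On the TPM scale it had 15 higher and 11 lower, and Kpnb1 had a log2(TPM + 1) ratio of -0.29.

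**Figure D4:**
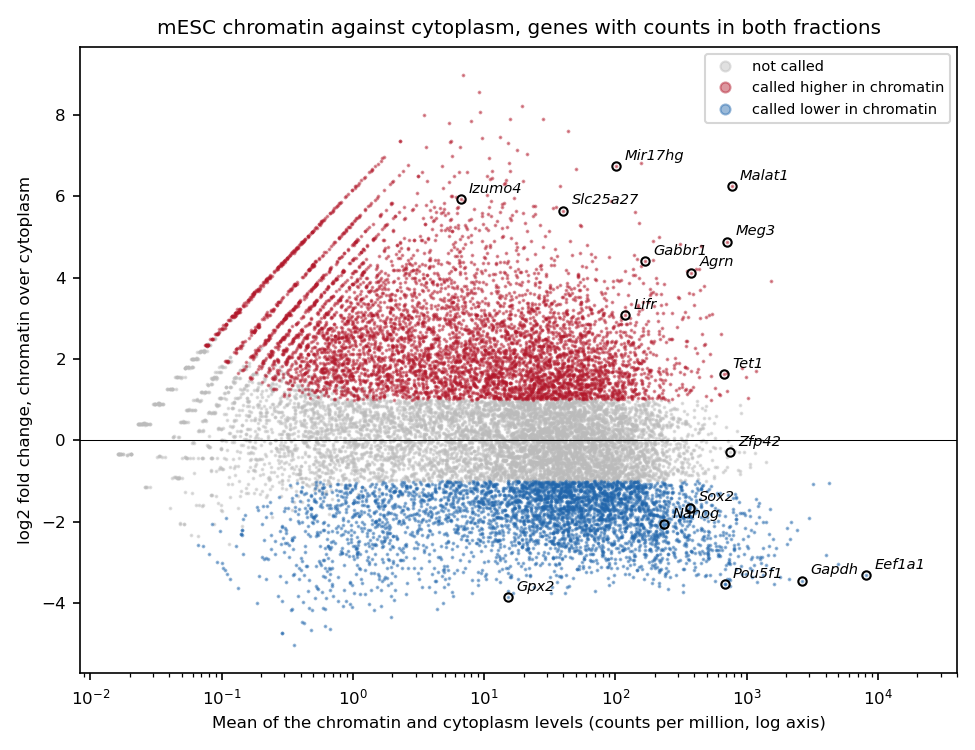
Mean of the chromatin and cytoplasm levels (CPM, log axis) against the log2 fold change of chromatin over cytoplasm for 17350 genes with counts in both fractions of mESC, coloured by call. Calls higher in chromatin spread over low and middle levels, with Mir17hg and Malat1 at the top, and calls lower reach the highest levels, with Gapdh and Eef1a1.

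Across all genes, 10198 of 18226 were called (56.0%), 6265 higher and 3933 lower in chromatin. Scaling by library totals gave 8100 higher and 2485 lower, with the median of all genes at 0.88 in place of 0.37, and log2(TPM + 1) gave 6076 higher and 1815 lower, with a median of 0.45. All 3 chromatin libraries lay on one side of all 3 cytoplasm libraries in 12606 genes (69.2%). Of the genes called higher, 374 had no count in any cytoplasm library. Calls also moved with the level: when genes were put in 5 groups of like size by mean CPM, 42.6% of the group with the lowest levels were higher and 7.71% lower, and 17.9% of the group with the highest levels were higher and 38.2% lower. The nucleoplasm lay between chromatin and cytoplasm in 92.0% of genes called lower and in 70.6% of genes called higher. Of the genes called higher, 1530 had their highest mean in the nucleoplasm.

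Gene span moved with the calls. Protein-coding genes were put in 10 groups of like size by the distance from start to end. In the shortest group (median 2.71 kb) 14.9% were higher and 48.6% lower in chromatin, with a median log2 fold change of -1.01. In the longest group (median 222 kb) 49.8% were higher and 4.68% lower, with a median of 1.20. The deposited length of each gene covers its introns, so unspliced RNA may be counted, whereas TPM values come from transcripts. In TPM the median ratio was 0 in the shortest group, 0.70 in group 8 and 0.40 in the longest. Across 14740 genes with at least 1 TPM in a fraction the measures had a Pearson r of 0.835 and a Spearman rho of 0.868, a description over genes, which are not independent. Of 4837 genes called higher in counts 4782 had a TPM ratio above 0, and of 3557 called lower 3279 had one below 0. The median over the 14740 genes was 0.71 in TPM and 0.20 in counts, so a TPM ratio above 0 was the more common side. In TPM 64 of those called lower were higher by at least 1, and 16 of those called higher were lower by at least 1. Processed pseudogenes, copies of spliced messages with no introns, were lower in 288 of 450 cases and higher in 83 (median -2.35). Of all genes 21.6% were lower and 34.4% higher. Their counts may share reads with the parent genes, which was not tested.

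**Figure D5:**
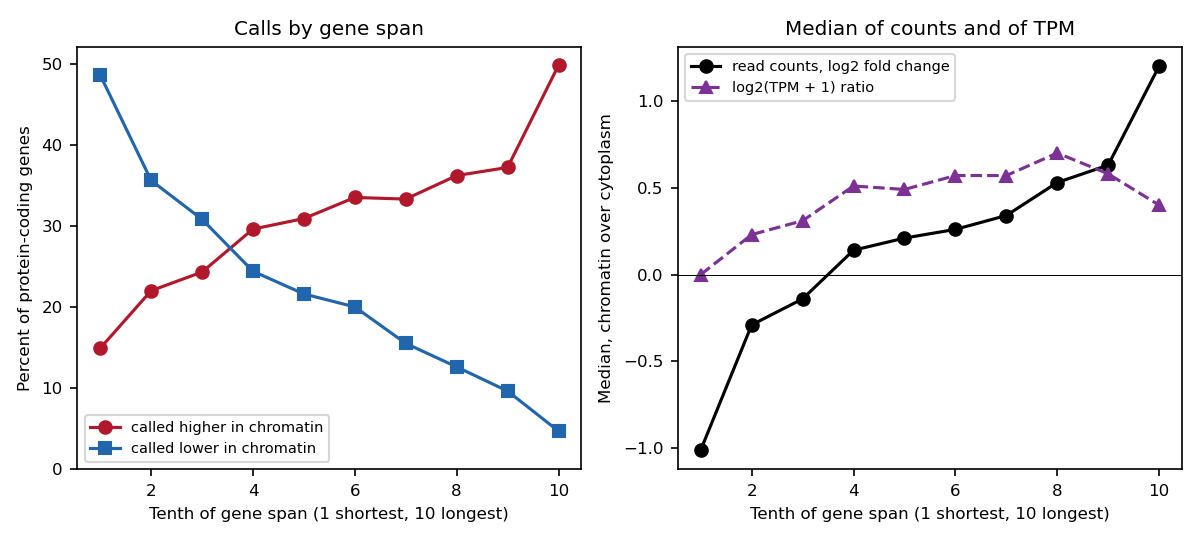
Left, share of mESC protein-coding genes called higher or lower in chromatin than cytoplasm in 10 groups of gene span. Right, median log2 fold change of read counts and median log2(TPM + 1) ratio in the same groups. The share called higher goes from 14.9% to 49.8% and the count median from -1.01 to 1.20, while the TPM median peaks at 0.70 in group 8.

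The chromatin-to-cytoplasm ratios of mESC were set against those of the neural cells by testing the difference itself in the same fit. The difference was called in 5104 genes (28.0%) for mNPC, 17.7% of all genes being higher and 10.3% lower in mESC, and in 7399 (40.6%) for mCtx, 24.9% being higher and 15.7% lower. Calls within mNPC covered 48.9% of genes, 27.5% on the chromatin side and 21.3% on the cytoplasm side, and within mCtx 50.6%, with 26.2% and 24.4%. Both differences use the same mESC libraries. Malat1 had a ratio of 6.13 ± 0.25 in mNPC, 0.11 ± 0.29 below that of mESC (adjusted p = 0.833), and 2.17 ± 0.21 in mCtx, a difference of 4.07 ± 0.30 (adjusted p = 2.9e-11). Tug1 had 0.22 in mNPC and -1.60 in mCtx, with differences of 3.19 ± 0.22 and 5.02 ± 0.22. Gas5 had 0.51 and 1.09, with differences of 3.93 ± 0.25 and 3.35 ± 0.25. Both genes were thus nearer to chromatin in mESC than in either neural cell type. Gabbr1 differed by 3.23 ± 0.23 and 5.14 ± 0.24, the ER chaperone Hsp90b1 by 1.62 ± 0.28 and 1.56 ± 0.28, and mt-Nd1 by 3.45 ± 0.29 and 4.68 ± 0.30. The microRNA loci of the Mir290 to Mir295 cluster had 0 counts in the chromatin of mNPC and of mCtx, so no difference can be given for them.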

How the data were processed

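The authors deposited read counts per gene, per the file headers, for 27 libraries. The 9 columns headed Chr, the chromatin libraries, contain only whole numbers and were treated as deposited counts too. A second deposited table gives TPM per gene. The submitters' processing notes name mm10, kallisto 0.43.0, featureCounts and STAR; the options, strand setting and annotation release were not given in the sources used here. Libraries were made with a stranded kit and read as 100 bp pairs, per the labels' protocols. The deposited length equals end minus start plus 1 in 37332 of 37332 genes. Symbols came from GENCODE M21 (35533 genes matched), microRNA sequences from RefSeq GRCm38.p6.

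Counts of all 27 libraries were fitted in 1 model of 9 groups with edgeR 4.0.16 in R 4.3.3 (TMM scaling, filterByExpr, quasi-likelihood F-test, Benjamini-Hochberg adjustment over 18226 genes); log2(TPM + 1) was tested with limma 3.58.1, and DESeq2 1.42.0 served as an alternative. SE is the log2 fold change over the square root of F. The code of the fits was run on simulated data with few changed genes and the same spread for every gene. That simulation had no library standing apart and no pairing, so it does not cover these features of the data. Same-numbered mESC chromatin and cytoplasm libraries deviated together (r = 0.615, 0.31 and 0.553), so the numbers pair the samples. Members and lists were chosen with earlier results of these data known. Genes were named by a rule: the 10 protein-coding and 5 lncRNA genes with the largest changes in each direction at 10 CPM or more, with libraries that do not overlap, a span of at least 1 kb and no same-strand gene over 50% of it, the 2 most abundant genes and the most changed gene of each list, short loci under 200 bases, a fixed set of regulators and the 3 largest differences from each neural cell type in each direction. Other named genes were chosen after their values were seen. Of 1147 list entries, 1104 were in the count table.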

Additional observations from a re-analysis of the deposited data

Results flagged for a closer look

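The chromatin-to-cytoplasm log2 fold change of mESC differed from that of mNPC in 5104 genes and from that of mCtx in 7399 genes by edgeR's test of the difference itself (adjusted p under 0.05 and a difference of at least 1). Among protein-coding genes that met the naming rule, the largest differences from mNPC were those of Chrdl1 (7.06 ± 0.92), the potassium channel gene Kcnk6 (6.81 ± 1.05) and Igsf1 (6.74 ± 1.76) on the chromatin side of mESC, and of the interferon-induced Ifitm1 (-7.50 ± 1.01), the stem cell Ras gene Eras (-6.42 ± 2.44) and Sox15 (-5.65 ± 0.95) on its cytoplasmic side. From mCtx they were those of the neuropeptide gene Cort (7.32 ± 0.57), Rab3c (7.05 ± 1.03) and the protocadherin gene Pcdh11x (7.02 ± 0.94), and of Sox15 (-7.11 ± 1.20), Rab25 (-6.38 ± 0.65) and the helicase gene Mov10 (-6.21 ± 0.20).

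Most of these values rest on few counts in one group. Chrdl1, Rab3c and Pcdh11x had 26, 15 and 24 counts in the 3 mESC chromatin libraries and 0 in cytoplasm, Kcnk6 and Igsf1 had 0 in mNPC chromatin, Eras had 3 and 0 counts in mNPC chromatin and cytoplasm, Sox15 and Ifitm1 had 1 count in mNPC cytoplasm, and Sox15 had 0 in mCtx cytoplasm. A fitted value against 0 counts depends on the prior count and is no bound. Rab25 had 1 count in mCtx cytoplasm and Cort 10 in mESC cytoplasm. Mov10 had at least 242 counts in each of the 4 groups compared, with 74.1 CPM in mESC chromatin, 265 in mESC cytoplasm, 88.0 in mCtx chromatin and 4.24 in mCtx cytoplasm. The difference of Eras lost its call (adjusted p 0.0502 to 0.0871) without any 1 of 7 libraries, those of mNPC chromatin and cytoplasm and mESC chromatin 1. In log2(TPM + 1) the differences of Chrdl1 and Pcdh11x were 0.82 and 0.70, too small for a call.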

How the results depend on the processing

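The number of genes called between chromatin and cytoplasm kept within 1.5 times of 10198 under each alternative run, but the split did not. Genes called lower in chromatin numbered 2485 with library totals and 1815 with log2(TPM + 1), against 3933. Against the nucleoplasm, genes called higher in chromatin numbered 4390 with library totals and 4598 in TPM (2919 as reported), and genes called lower 1020 in TPM (3164). From nucleoplasm to cytoplasm, TPM called 3767 genes (6652), 2859 of them higher (5021) and 908 lower, where library totals gave 562 lower and a fit of only the libraries compared 825 (1631). For these shifts the cause was not tested. Leaving out 1 library at a time gave 9945 to 10531 calls between chromatin and cytoplasm, 5950 to 6556 higher and 3857 to 4121 lower. Against nucleoplasm the ranges were 5646 to 6808, 2555 to 3843 and 2965 to 3349, and from nucleoplasm to cytoplasm 6042 to 7391, 4252 to 5272 and 1709 to 2277. For the difference from mNPC they were 4724 to 5400, 3031 to 3782 and 1446 to 2098, and from mCtx 7041 to 7634, 4312 to 4828 and 2687 to 3076. The sign turned for Trim28 (0.46), Grik3 (1.24) and Tfcp2l1 (0.29) in TPM and for Zfp42 (0.25) with library totals. With the replicate number as a block the pairing of same-numbered libraries gave 10324 calls, 6356 higher and 3968 lower, and changed no call of the genes described. Without the mESC libraries numbered 1, 6177 genes were higher and 3900 lower. Of the counts for gene lists, 1029 stayed within 1.5 times and 93 did not. Of the values for single genes, 2130 kept direction and call, 17 lost the call, 1 gained it and 4 turned. Low counts limit the ratios of genes with few or no cytoplasmic reads.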

Other observations

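Other gene groups gave values not described above, all as counts of genes called between mESC chromatin and cytoplasm. They stand beside 34.4% higher and 21.6% lower of all 18226 genes tested. Of 77 nuclear-encoded ribosomal proteins of mitochondria, 60 were lower in chromatin and 0 higher, with a median log2 fold change of -1.80. Of 8 actin genes and actin-binding members of the cofilin, profilin and thymosin families, 6 were lower and 0 higher (median -2.97). Factors of the nuclear exosome and of RNA retention were lower in 8 and higher in 2 of 24 cases (median -0.42), but in 4 and 4 with library totals and 5 and 5 in TPM (median 0.35). Replication-dependent histone genes, whose main transcripts lack a poly(A) tail, were mostly not called, with 3 higher and 5 lower of 25 (median -0.21), which turned to 7 and 1 with library totals and 7 and 0 in TPM. Genes of primed pluripotency and early lineages had 8 higher and 10 lower of 25, but 8 and 4 with library totals and 8 and 1 in TPM. Their summed level, without TMM scaling, was 849 to 895 CPM in chromatin, 1191 to 1892 CPM in nucleoplasm and 339 to 524 CPM in cytoplasm. Much of it in the nuclear fractions came from the matrix genes Lama1, Lamb1, Col4a1 and Col4a2. Lama1, for example, had TMM-scaled means of 185, 341 and 25.9 CPM. The sum therefore does not describe the lineage factors: Otx2, Pou3f1 and Sox3 were lower in chromatin (-1.27, -2.14 and -3.33). Of 11 genes of the two-cell-like state, 0 were higher and 2 lower, and 0 were lower with DESeq2, library totals, TPM, a filter of 1 CPM, only the libraries compared, or without cytoplasm library 1 or 2, with 2 higher in TPM. Haematopoietic and endothelial markers had 4 higher and 0 lower of 10 (7 and 0 with library totals). Their summed levels, without TMM scaling, were 188 to 301 CPM in chromatin and 102 to 130 CPM in cytoplasm.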
